A study of Mus musculus with 12 samples.

Results

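The genes described here are 40 genes of the stress program that the transcription factors ATF4 and CHOP run in mammalian cells. They comprise 7 transcription factor genes, 7 genes of stress effectors and secreted products, 11 genes of amino acid synthesis, 7 genes of amino acid transporters and 8 genes of tRNA synthetases. They were listed by name, from their known roles, with earlier results of these arrays known. A probe was assigned to a gene through its RefSeq accession, which gave a probe for 39 of the 40 genes. All 39 were among the 15445 genes tested. Pycr1, which encodes a proline synthesis enzyme, had no named probe and was not analysed here.

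ATF4 is made when a kinase such as PERK, PKR, GCN2 or HRI phosphorylates the translation initiation factor eIF2α: most protein synthesis then slows, while the Atf4 transcript is translated more efficiently. ATF4 pairs with C/EBP proteins and switches on genes for amino acid uptake and synthesis, for tRNA charging and for further regulators, among them CHOP (gene Ddit3) and ATF3. GADD34 (gene Ppp1r15a), itself a product of this program, brings protein phosphatase 1 to eIF2α and so reverses the phosphorylation, and PKR is activated by double-stranded RNA such as poly(I:C).

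RNA from mouse embryonic fibroblasts, connective tissue cells grown in culture, was measured on 12 single-colour Agilent arrays, 3 in each of 4 groups that crossed 2 genotypes with 2 treatments. The genotypes were wild type and GADD34ΔC/ΔC (ΔC below), and the labels do not describe the deletion or say how many embryos or cell lines stood behind each genotype. Treated cells had taken up poly(I:C) of high molecular weight, a double-stranded RNA made synthetically, through transfection with lipid at 2.5 µg/ml and were collected at 6 h. Untreated cells had received neither RNA nor lipid, and no group with lipid alone was analysed here. The design text speaks of independent experiments, which the replicate numbers 1 to 3 are taken to mark. Values below are log2 processed intensities minus the 75th percentile of the array (called levels), and a level's error is the SD over the 3 arrays of a group. A level can be compared between groups for 1 gene, but not between genes, since probes differ in brightness. Changes are differences of group means with the standard error from limma, whose p-values were adjusted over all 15445 genes, and a gene was called at an adjusted p under 0.05. The number of arrays limits the precision.

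As a check of the labels, the targeted gene Ppp1r15a had levels of 2.65, 2.62 and 3.36 in untreated wild-type cells and was well above background on 0 of 3 untreated and 1 of 3 treated ΔC arrays, in untreated cells at least 485-fold lower (limma adjusted p = 6.15e-05). Ppp1r15a entered the test only through the wild-type groups, where it was high, so that its genotype p-values carry that selection. The files give no probe positions, so that the place of this probe relative to the deletion is not known here. All 8 fibroblast markers were well above background on all 3 arrays of both ΔC groups and of untreated wild-type cells, and 7 of 8 were after poly(I:C) in wild-type cells, where Thy1 was so on 1 array. Arrays numbered 3 stood apart from those numbered 1 and 2 on the third principal component of all genes (8.52% of the variance, -45.5 to -24.3 against 2.08 to 31), and results are therefore also given without them. The median over all genes lay at -0.14 for the response of wild-type cells and at -0.05 for that of ΔC cells. For the genotype difference it lay at -0.06 before and 0.01 after treatment. Scaling each array to its median in place of its 75th percentile moved the second and the fourth of these to -0.19 and -0.14.

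A DNA element that ATF4 or CHOP binds together with a C/EBP partner, the C/EBP-ATF composite, carries the letters TGATGNAA, which read TTNCATCA on the other strand. Those letters were searched for on both strands in the 250 bases before the start of each gene in the RefSeq promoter table (GRCm38.p6), which held 35 of the 40 genes. They stood before 10 of the 35 (28.6%), namely Atf3, Nupr1, Chac1, Vldlr, Asns, Pycr1, Slc7a11, Aars1, Gars1 and Tars1, and before 3.91% of all 27025 genes of the table. A share above that of all genes describes a list that was drawn from known ATF4 targets and is not a result of these arrays. The letters TGACGTCA of the cAMP response element, a site of ATF family dimers whose reverse strand reads the same, stood before 0 of the 35 genes and before 1.77% of all genes. The 6 windows below were chosen because they show genes that rose in both genotypes (Atf3, Chac1) beside genes that hold the same letters and did not pass the test in either response (Nupr1, Asns, Slc7a11, Tars1). Each is 60 bases of the gene's sense strand, 5′ to 3′, with the matching letters in capitals.
Atf3, minus strand, chr1:191183410-191183469: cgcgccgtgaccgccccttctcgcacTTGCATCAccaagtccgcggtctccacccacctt
Chac1, plus strand, chr2:119351023-119351082: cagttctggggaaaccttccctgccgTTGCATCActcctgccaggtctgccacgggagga
Nupr1, minus strand, chr7:126625547-126625606: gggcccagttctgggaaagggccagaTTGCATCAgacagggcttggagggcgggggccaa
Asns, minus strand, chr6:7693210-7693269: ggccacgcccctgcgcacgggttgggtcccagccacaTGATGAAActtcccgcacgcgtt
Slc7a11, minus strand, chr3:50443646-50443705: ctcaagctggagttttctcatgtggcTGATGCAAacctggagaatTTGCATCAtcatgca
Tars1, minus strand, chr15:11399659-11399718: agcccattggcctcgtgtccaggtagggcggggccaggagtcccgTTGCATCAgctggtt
Slc7a11, the only gene of the 10 with the letters in both orientations, has a copy on each strand within this window. Of the 9 tested genes with the letters, 2 rose in the wild-type response and 2 in the ΔC response, beside 5.24% and 1.82% of all genes. Of the 25 tested genes with a window and without the letters, 4 rose in wild-type cells (Ddit3, Cebpb, Slc7a1 and Slc3a2) and 0 in ΔC cells. A match here is a match of letters in 1 window and says nothing about binding, and its absence says nothing about sites elsewhere.

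The first comparison asked which of these genes responded to poly(I:C) in wild-type cells. Of the 39 genes 6 rose and 0 fell, or 15.4% called, where 5.24% of all genes rose and 1.53% fell. The risers were 3 transcription factor genes (Atf3, Ddit3, Cebpb), the glutathione-degrading enzyme gene Chac1 and 2 amino acid transporter genes (Slc3a2, Slc7a1). No gene of amino acid synthesis or of a tRNA synthetase passed the test. The log2 change was above 0 for 33 of the 39 with a median of 0.32, and in 16 of the 39 the 2 groups did not overlap, which held for 30.6% of all genes.

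**Figure D1:**
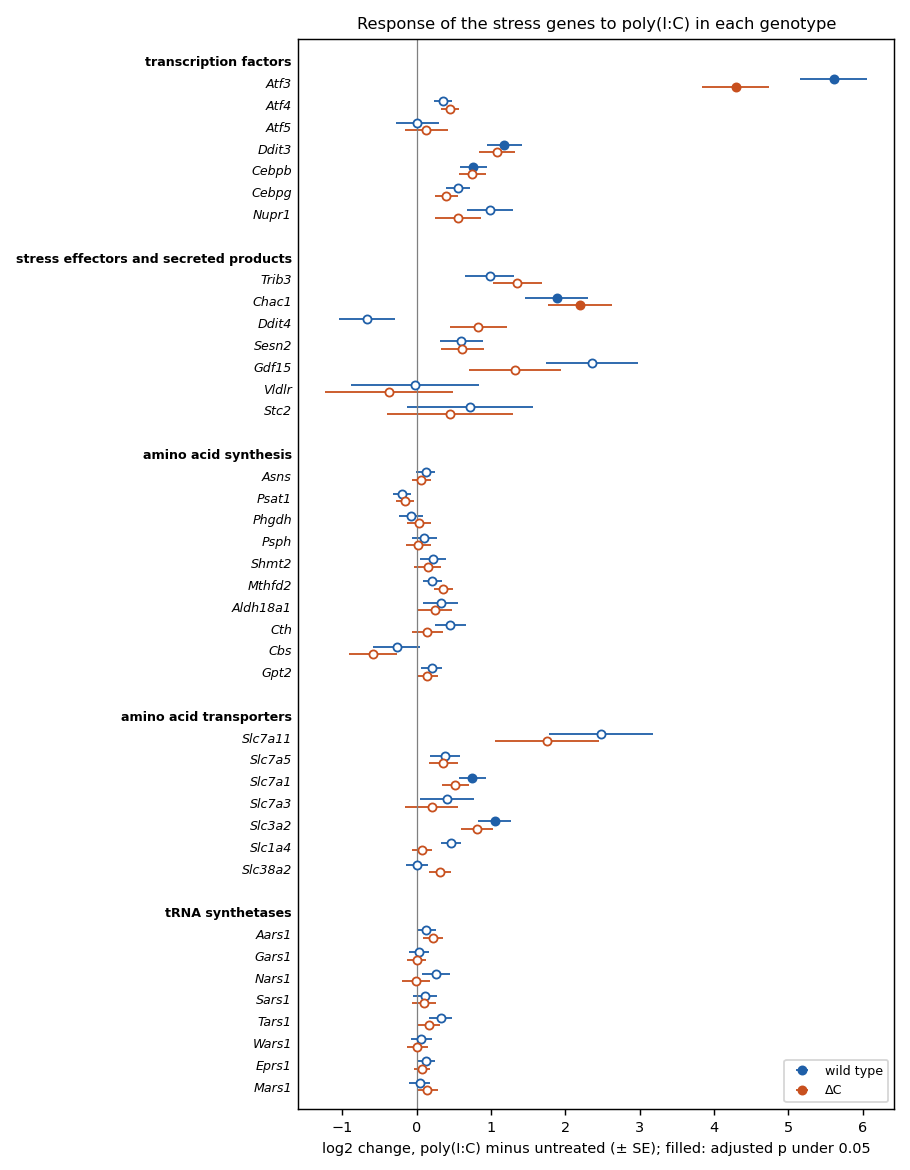
Log2 change after poly(I:C) (x axis, ± SE) of the 39 measured genes, by role, in wild-type (blue) and ΔC cells (orange); filled points had a limma adjusted p under 0.05. Atf3 lies far to the right in both genotypes (5.61 and 4.29), Chac1 is the other gene filled in both, and the amino acid synthesis and tRNA synthetase genes lie close to 0.

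Among the transcription factor genes Atf3, which encodes an ATF family factor induced by many stresses, moved most. Its levels were -0.31, -0.75 and 0.98 on the untreated wild-type arrays and 5.90, 5.82 and 5.04 after poly(I:C). All 3 treated arrays lay far above all 3 untreated ones, and number 3 was the highest untreated and the lowest treated array. The change was 5.61 ± 0.45, or 48.8-fold (limma adjusted p = 6.80e-05), and it was called under all 25 alternatives. Ddit3, the gene for CHOP, had levels of 1.55, 1.19 and 1.73 without and 2.82, 2.85 and 2.32 with poly(I:C). The groups did not overlap, and the rise was 1.18 ± 0.24 (limma adjusted p = 0.0166). Cebpb encodes C/EBPβ, a dimer partner of ATF4 and CHOP. It went from 4.40, 4.33 and 4.22 to 5.10, 5.37 and 4.77, again without overlap, a rise of 0.76 ± 0.18 (limma adjusted p = 0.0308).

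The gene of ATF4 itself did not pass. Its levels were 7.88, 7.89 and 7.99 in untreated and 8.38, 8.33 and 8.09 in treated wild-type cells. The groups did not overlap, but the change was small, at 0.35 ± 0.12 (limma adjusted p = 0.0962). Of the remaining factors, Atf5, a second ATF4-related factor under the same translational control, had a difference of 0.01 ± 0.29 (limma adjusted p = 0.991). Cebpg, which encodes another C/EBP partner of ATF4, had a difference of 0.55 ± 0.16 (limma adjusted p = 0.0642). Nupr1 encodes a small chromatin-associated stress protein and had levels of 4.83, 4.98 and 4.18 without and 5.88, 6.01 and 5.07 with poly(I:C), a difference of 0.99 ± 0.31 that did not pass (limma adjusted p = 0.0792).

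**Figure D2:**
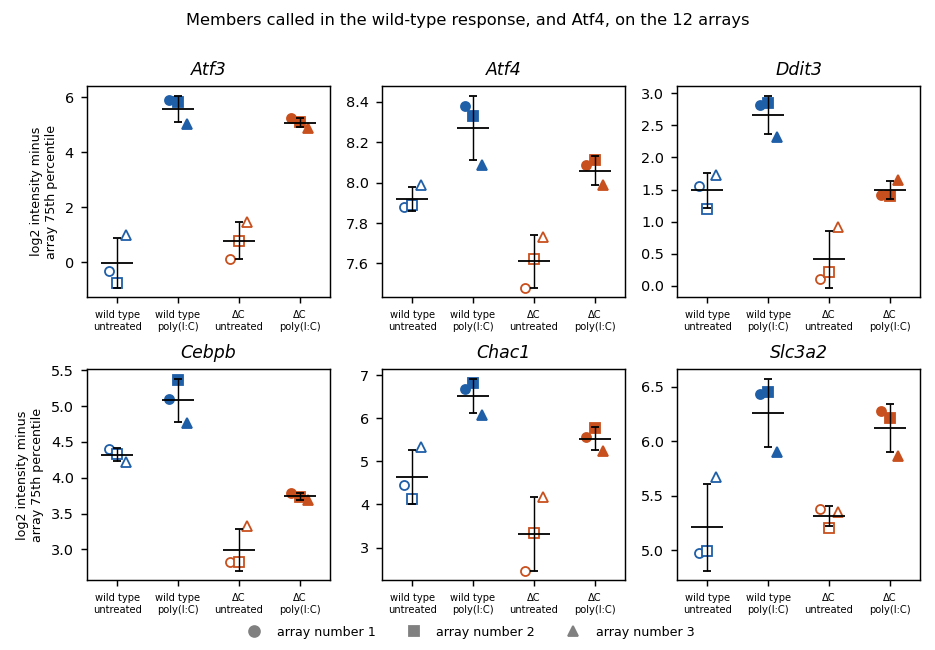
Levels (log2 intensity minus the array's 75th percentile, y axis) of Atf3, Atf4, Ddit3, Cebpb, Chac1 and Slc3a2 on the 12 arrays by group; symbols give the replicate number, and bars the mean and SD of 3 arrays. In wild-type cells the untreated and treated arrays do not overlap for any of the 6 genes, and the Atf4 scale spans less than 1 log2 unit, where that of Atf3 spans more than 6.

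Of the stress effectors and secreted products only Chac1 was called in wild-type cells. Chac1 stood at 4.45, 4.13 and 5.34 without and 6.67, 6.81 and 6.08 with poly(I:C), a rise of 1.88 ± 0.43 (limma adjusted p = 0.0296). The untreated array numbered 3 came nearest to the treated ones. Gdf15, which encodes a secreted stress cytokine, lay just outside the threshold. Its levels were -0.95, -1.64 and -0.25 without and 1.64, 1.62 and 0.98 with treatment, a separation of 2.36 ± 0.62 (limma adjusted p = 0.0505). With the replicate number as a block (replicate block) its adjusted p was 0.0259, and without any 1 of the 4 arrays numbered 3 it was 0.0252 to 0.0445. Trib3 encodes a pseudokinase that restrains this pathway and had a difference of 0.98 ± 0.33 (limma adjusted p = 0.099). For Sesn2, a stress-induced inhibitor of mTORC1 signalling, the change was 0.60 ± 0.29 (limma adjusted p = 0.218). Ddit4, the gene of another mTORC1 inhibitor, had an estimate below 0, -0.67 ± 0.38, that came mostly from the arrays numbered 1 (-1.53, -0.23 and -0.25 by number, limma adjusted p = 0.279). Stc2, which encodes a secreted glycoprotein, and Vldlr, which encodes a lipoprotein receptor, had differences of 0.72 ± 0.85 and -0.02 ± 0.86 (limma adjusted p = 0.606 and 0.991).

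Among the transporters Slc3a2, which encodes the heavy chain shared by several amino acid exchangers, rose. It stood at 4.97, 4.99 and 5.67 in untreated cells and at 6.43, 6.45 and 5.90 in treated cells, a rise of 1.05 ± 0.22 (limma adjusted p = 0.0196). The gap between the groups was set by the arrays numbered 3, the highest untreated and the lowest treated. Slc7a1, the gene of a cationic amino acid carrier, went from 4.52, 4.49 and 4.95 to 5.49, 5.40 and 5.31, a rise of 0.75 ± 0.18 (limma adjusted p = 0.0381, and 0.0532 with the replicate block).

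Slc7a11, which encodes the light chain of the cystine-glutamate exchanger, had the second largest estimate of all 39 genes. It was dim: 1 of 3 untreated and 3 of 3 treated wild-type arrays were well above background, so that the size of its change rests partly on background readings. It entered the test only through the treated groups of both genotypes, where it was high, so that its p-values carry that selection. Its levels were -5.34, -6.23 and -6.41 without and -2.68, -2.99 and -4.86 with poly(I:C), a difference of 2.48 ± 0.70 (limma adjusted p = 0.0635, and 0.0191 with the replicate block). Slc1a4 encodes a neutral amino acid carrier and had a difference of 0.46 ± 0.13 (limma adjusted p = 0.0671, and 0.0458 with the replicate block). The cationic carrier gene Slc7a3, the light chain gene Slc7a5 and the glutamine carrier gene Slc38a2 had changes of 0.41, 0.38 and -0.00 and did not pass.

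The amino acid synthesis genes lay between -0.27 and 0.45 with a median of 0.16, and 0 of 10 had even an unadjusted p under 0.05. The largest estimates were those of Cth, which encodes the last enzyme of the transsulfuration path to cysteine, and Aldh18a1, which encodes the first enzyme of proline synthesis. Cth stood at 0.20, -0.00 and 0.89 without and 0.67, 0.73 and 1.02 with treatment, a difference of 0.45 ± 0.21 (limma adjusted p = 0.202). Aldh18a1 stood at 1.83, 2.06 and 2.57 and at 2.35, 2.60 and 2.48, and the groups overlapped (0.32 ± 0.23, limma adjusted p = 0.385). Asns, which encodes asparagine synthetase and is a textbook target of ATF4, had a difference of 0.12 ± 0.13 (limma adjusted p = 0.567). Its 95% interval was -0.16 to 0.40.

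The 8 tRNA synthetase genes lay between 0.03 and 0.32 with a median of 0.12, and 0 of 8 had an unadjusted p under 0.05. Tars1, for threonyl-tRNA synthetase, had the largest estimate. Its levels of 5.47, 5.56 and 5.93 without and 5.98, 5.98 and 5.96 with poly(I:C) did not overlap, yet the difference of 0.32 ± 0.15 did not pass (limma adjusted p = 0.206). Nars1, for asparaginyl-tRNA synthetase, stood at 3.68, 4.39 and 4.43 and at 4.37, 4.58 and 4.33 and overlapped (0.26 ± 0.19, limma adjusted p = 0.411). The 2 probes of Aars1, for alanyl-tRNA synthetase, gave 0.13 and 0.50.

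Atf3 apart, the wild-type calls were lost without single arrays numbered 1 or 2 and with slide or scan day in the model, and 4 of these 5 were kept with the replicate block. Leaving out untreated 1, untreated 2, poly(I:C) 1 or poly(I:C) 2 of the wild-type arrays ended the call of Ddit3 (limma adjusted p = 0.059 to 0.0872) and of Slc3a2 (0.0811 to 0.102). The same arrays or ΔC poly(I:C) 2 ended that of Cebpb (0.0507 to 0.141), and the same 4 or ΔC untreated 2 that of Chac1 (0.05 to 0.132). For Slc7a1 the same 4, ΔC poly(I:C) 2 or either of ΔC untreated 1 and 2 did so (0.0523 to 0.158). Cebpb (0.0854) and Slc7a1 (0.0805) also fell short when arrays were scaled to their medians. Of the 25 alternatives Ddit3 was called under 18, Slc3a2 under 18, Chac1 under 16, Cebpb under 14 and Slc7a1 under 11. Leaving out wild-type poly(I:C) 3 brought a call for Atf4 (limma adjusted p = 0.0378). With slide as a block Atf3 alone was called (limma adjusted p = 0.0232), and the other 5 had adjusted p-values of 0.164 to 0.347. The 1 slide that held both wild-type groups held 1 array of each (number 2), and the scan day that held both had 1 untreated and 2 treated arrays, so that for genes whose groups do not overlap these values give a size and no test of direction. Within that slide the changes were 6.57 for Atf3, 2.69 for Chac1, 1.65 for Ddit3, 1.46 for Slc3a2, 1.03 for Cebpb and 0.91 for Slc7a1, and within that scan day they were 6.61, 2.62, 1.64, 1.45, 0.90 and 0.95.

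The size of the response differed by replicate number, and the part of slide and scan day in this was not tested. In wild-type cells the untreated and treated arrays numbered 2 shared a slide and a scan day, and those numbered 1 and those numbered 3 shared neither. In ΔC cells those numbered 1 shared both, and those numbered 2 and those numbered 3 shared neither. Taken between arrays of the same number, the median change of the 39 genes in wild-type cells was 0.48 for number 1, 0.42 for number 2 and 0.09 for number 3, beside -0.19, -0.13 and -0.04 over all genes. Number 3 gave the lowest change of the 3 for 30 of the 39 genes. For Chac1 the 3 changes were 2.22, 2.69 and 0.73, for Slc3a2 1.46, 1.46 and 0.23, and for Atf4 0.50, 0.45 and 0.10. Without the 4 arrays numbered 3 the wild-type response held 18 called members, all of them higher, where 13.0% of all genes rose and 21.1% fell. The 12 added were Atf4, Cebpg, Nupr1, Trib3, Gdf15, Mthfd2, Cth, Slc7a11 (with the selection given above), Slc7a5, Slc1a4, Sars1 and Tars1. In that fit Atf4 rose by 0.47 (limma adjusted p = 0.011) and Gdf15 by 2.93 (limma adjusted p = 9.58e-04).

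**Figure D3:**
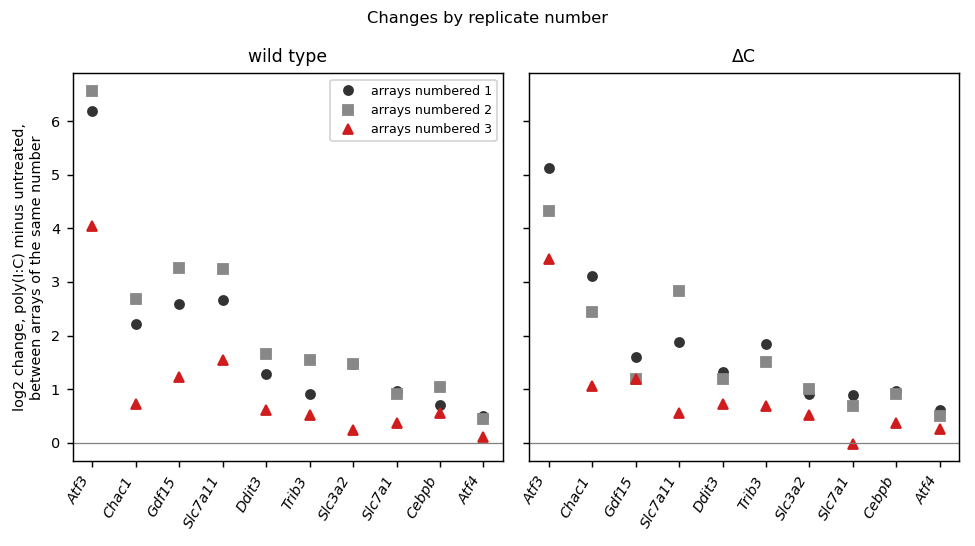
Log2 change after poly(I:C) between arrays of the same replicate number (y axis) for 10 genes in wild-type (left) and ΔC cells (right); red triangles are the arrays numbered 3. In wild-type cells the triangle is the lowest point for all 10 genes (4.05 for Atf3 against 6.20 and 6.57), and in ΔC cells it is lowest for 9 of them, with Gdf15 (1.59, 1.18 and 1.19) the exception.

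In ΔC cells the same comparison gave 2 genes that rose and 0 that fell, or 5.13% called, where 1.82% of all genes rose and 0.0194% fell. The 2 were Atf3 and Chac1. The log2 change was above 0 for 35 of the 39 genes with a median of 0.22 (0.08 when arrays were scaled to their medians). The groups did not overlap for 13 genes, which held for 17.7% of all genes.

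Atf3 stood at 0.11, 0.76 and 1.46 in untreated ΔC cells and at 5.24, 5.08 and 4.89 after poly(I:C), a wide separation. It rose by 4.29 ± 0.45, or 19.6-fold (limma adjusted p = 6.93e-04), and the call was lost with slide as a block (0.117) and in the authors' deposited table (0.571), but not in that table without its mismatched ΔC column (0.00589). Chac1 went from 2.46, 3.33 and 4.18 to 5.57, 5.77 and 5.23, a rise of 2.20 ± 0.43 (limma adjusted p = 0.0296). Its untreated arrays spread widely, with number 3 the highest. The Chac1 call was lost with the replicate block (limma adjusted p = 0.0518) and with slide as a block (0.507). It was also lost without array 1 of either wild-type group and without array 1 or 2 of either ΔC group (0.0502 to 0.128), and it held under 13 of the 25 alternatives. Between the 2 arrays, 1 of each ΔC group (number 1), that shared a slide the values were 5.13 for Atf3 and 3.11 for Chac1, and within the scan day of 2 untreated and 1 treated ΔC arrays they were 4.80 and 2.67, with the direction again set by groups that do not overlap.

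Ddit3 lay just outside the threshold in ΔC cells. Its levels of 0.10, 0.21 and 0.92 without and 1.41, 1.40 and 1.65 with treatment did not overlap (1.08 ± 0.24, limma adjusted p = 0.0533). Leaving out wild-type poly(I:C) 3 or ΔC untreated 3 put it inside (0.0104 to 0.0399). Cebpb, at 2.82, 2.83 and 3.32 and at 3.79, 3.73 and 3.69, also separated without passing (0.75 ± 0.18, limma adjusted p = 0.0731), and it was called without either of the same arrays (0.0228 to 0.0381). Atf4 stood at 7.48, 7.62 and 7.73 without and 8.09, 8.11 and 7.99 with poly(I:C), a difference of 0.45 ± 0.12 (limma adjusted p = 0.109).

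Trib3 had a difference of 1.35 ± 0.33 (limma adjusted p = 0.0912), and without ΔC untreated 3 it was called (0.00594). Gdf15 stood at -5.10, -5.24 and -3.26 without and -3.51, -4.06 and -2.06 with treatment, and the groups overlapped (1.32 ± 0.62, limma adjusted p = 0.483). Among transporters the largest estimates were those of Slc7a11 and Slc3a2. Slc7a11, well above background on 2 of 3 untreated and 3 of 3 treated ΔC arrays, stood at -4.68, -6.64 and -5.42 and at -2.82, -3.81 and -4.86 (1.75 ± 0.70, limma adjusted p = 0.416). Slc3a2 stood at 5.38, 5.20 and 5.35 and at 6.28, 6.21 and 5.86, which did not overlap (0.81 ± 0.22, limma adjusted p = 0.137).

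In amino acid synthesis the largest estimates in ΔC cells were those of Cbs, which encodes the first enzyme of the transsulfuration path, and Mthfd2, which encodes a mitochondrial one-carbon enzyme. Cbs stood at 0.35, 0.04 and -0.95 without and -0.63, -0.70 and -1.01 with poly(I:C) (-0.59 ± 0.32, limma adjusted p = 0.547). Mthfd2 stood at 3.73, 3.63 and 3.95 and at 4.06, 4.19 and 4.13, without overlap (0.36 ± 0.13, limma adjusted p = 0.344). The tRNA synthetase genes lay between -0.01 and 0.22. The largest of these, Aars1, stood at 5.43, 5.39 and 5.40 and at 5.61, 5.69 and 5.60, a small shift without overlap (0.22 ± 0.13, limma adjusted p = 0.562). Tars1 stood at 5.34, 5.37 and 5.77 and at 5.63, 5.65 and 5.68, and the groups overlapped (0.16 ± 0.15, limma adjusted p = 0.748).

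Without the arrays numbered 3 the ΔC response held 11 called members, 10 higher and 1 lower, where 6.52% of all genes rose and 6.62% fell. The higher genes were Atf3, Atf4, Ddit3, Cebpb, Trib3, Chac1, Gdf15, Mthfd2, Slc7a1 and Slc3a2, and the lower gene was Cbs (-0.86). By number, the median change of the 39 genes was 0.28, 0.29 and 0.17.

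Whether the responses differed between the genotypes was tested directly, as the ΔC response minus the wild-type response. Of the 39 genes 0 passed limma's test, where 0.0194% of all genes did, and 1 had an unadjusted p under 0.05. That count was also 0 under all 25 alternatives, the exclusion of the arrays numbered 3 and the replicate block among them. The intervals remained wide for most genes. For Ddit3 the difference was -0.10 with a 95% interval of -0.84 to 0.65, for Atf4 0.10 (-0.26 to 0.47), for Cebpb -0.01 (-0.56 to 0.54) and for Chac1 0.32 (-1.03 to 1.67). For Atf3 it was -1.32 ± 0.64 (-2.74 to 0.11, limma adjusted p = 0.975), and for Gdf15 -1.04 ± 0.88 (-3.00 to 0.92, limma adjusted p = 0.987). For Nupr1 it was -0.43 ± 0.43 (limma adjusted p = 0.987).

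The gene with an unadjusted p under 0.05 was Ddit4. In wild-type cells it stood at 6.11, 4.94 and 4.64 without and 4.57, 4.71 and 4.40 with poly(I:C). In ΔC cells it stood at 2.78, 3.38 and 3.90 without and 4.22, 4.48 and 3.86 with it. The wild-type estimate was negative and rested largely on untreated 1, and the ΔC estimate was positive, so that the treated levels of both genotypes overlapped. The difference was 1.50 ± 0.53 with a 95% interval of 0.32 to 2.69 (limma adjusted p = 0.685).

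In the other groups the largest differences were those of Cbs (-0.32 ± 0.46) and Cth (-0.31 ± 0.29), of Slc7a11 (-0.73 ± 1.00) and Slc1a4 (-0.39 ± 0.19), and of Nars1 (-0.27 ± 0.27) and Tars1 (-0.16 ± 0.21). None of the 6 passed (limma adjusted p = 0.972 to 0.987).

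The second question was how the genotypes compared at rest. In untreated cells 8 of the 39 genes differed, 1 higher and 7 lower in ΔC, or 20.5% called. Over all genes 10.9% were higher and 10.2% lower, so that the share called was near that of all genes (21.2%), and the 7 lower genes were 3 transcription factors (Cebpb, Ddit3, Atf5), 3 effectors or secreted products (Gdf15, Stc2, Ddit4) and the transporter gene Slc38a2. The gene that was higher was Cbs. The median difference was -0.19 (-0.06 under quantile normalization, where 4 genes were called higher and 6 lower), and the groups did not overlap for 14 genes, which held for 37.2% of all genes.

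**Figure D4:**
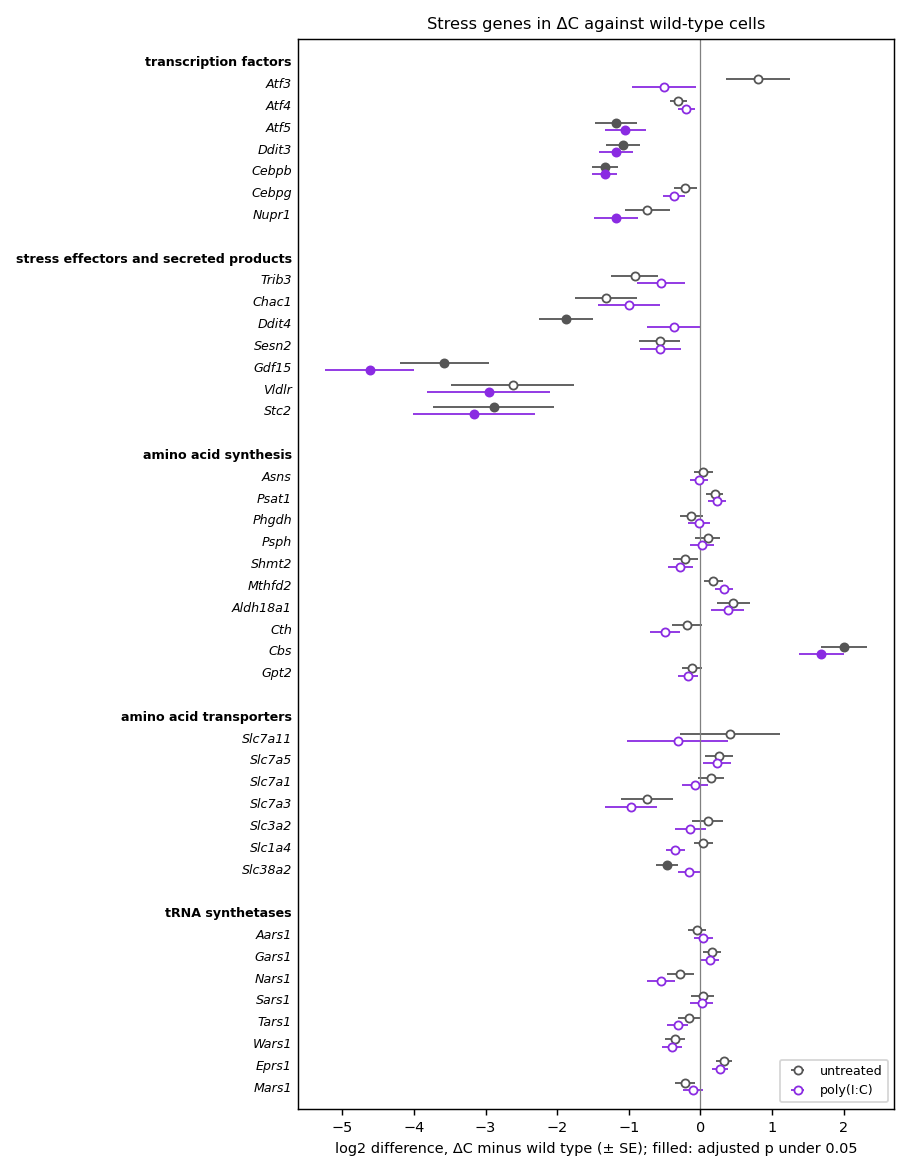
Log2 difference between ΔC and wild-type cells (x axis, ± SE) of the 39 measured genes, by role, in untreated (grey) and poly(I:C)-treated cells (purple); filled points had a limma adjusted p under 0.05. Gdf15, Stc2 and Vldlr lie farthest to the left and Cbs farthest to the right in both conditions, and no tRNA synthetase gene is filled.

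Cebpb gave the firmest of the lower calls among the transcription factors. Its untreated levels, given above, were 4.32 ± 0.09 (SD, n = 3) in wild-type and 2.99 ± 0.29 in ΔC cells, a difference of -1.33 ± 0.18 (limma adjusted p = 6.75e-04). Leaving out any 1 array did not end that call, and it was lost with slide as a block (0.0511). Ddit3 was 1.49 ± 0.27 and 0.41 ± 0.44, and all 3 ΔC arrays lay below all 3 wild-type ones (-1.08 ± 0.24, limma adjusted p = 0.0103). The Ddit3 call ended with a block for slide (0.207) or for scan day (0.0941) and in the authors' deposited table (0.0975), but not in that table without its mismatched column (0.0198). Atf5 stood at 5.75, 5.39 and 5.58 in wild-type and 4.29, 3.89 and 5.01 in ΔC cells, with ΔC number 3 nearest to the wild type. The difference was -1.18 ± 0.29 (limma adjusted p = 0.0173), and it was lost without wild-type untreated 1 or either of ΔC untreated 1 and 2 (0.0625 to 0.069).

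Atf4 was 7.92 ± 0.06 in wild-type and 7.61 ± 0.13 in ΔC cells. The groups did not overlap, and the difference of -0.31 ± 0.12 did not pass (limma adjusted p = 0.0847). Under quantile normalization and in the authors' deposited table, with or without its mismatched column, that difference was 0.03. Atf3, at -0.03 ± 0.90 and 0.78 ± 0.68, overlapped between the genotypes (0.80 ± 0.45, limma adjusted p = 0.24). Leaving out wild-type untreated 3 put it past the threshold on the higher side (0.0431).

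Gdf15 showed the largest difference of all 39 genes, and its ΔC levels were all far below the wild-type ones: -0.95 ± 0.70 in wild-type and -4.53 ± 1.11 in ΔC cells, or -3.58 ± 0.62 on the log2 scale (limma adjusted p = 0.00318). With slide as a block the adjusted p was 0.0652. Stc2 stood at -0.19, 0.00 and 0.70 in wild-type and -2.95, -4.27 and -0.92 in ΔC cells. Its ΔC arrays spread over more than 3 log2 units, and the difference was -2.89 ± 0.85 (limma adjusted p = 0.0358). The call was lost without any 1 of the 3 wild-type untreated arrays, either of wild-type poly(I:C) 1 and 2 or of ΔC untreated 1 and 2 (0.0511 to 0.131), and with a block for slide (0.161) or scan day (0.105). Ddit4, with the levels given above, differed by -1.88 ± 0.38 without overlap (limma adjusted p = 0.00662), and the call ended with a block for slide (0.133) or for scan day (0.058).

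Vldlr and Chac1 lay just outside the threshold. Vldlr stood at 1.24, 0.55 and 1.27 in wild-type and -1.21, -3.22 and -0.36 in ΔC cells (-2.62 ± 0.86, limma adjusted p = 0.0561, and 0.00765 with the replicate block). Without array 3 of either ΔC group or array 2 of the treated one Vldlr was called (0.0269 to 0.03). Chac1 was -1.32 ± 0.43, with ΔC number 3 overlapping the wild type (limma adjusted p = 0.0542, and 0.0126 without that array).

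Cbs was the exception in direction. It stood at -2.37, -2.35 and -1.87 in wild-type and at 0.35, 0.04 and -0.95 in ΔC cells, all ΔC arrays above all wild-type ones. The difference was 2.01 ± 0.32, or 4.03-fold higher (limma adjusted p = 0.00218), and slide as a block ended the call (0.0813). The other 9 amino acid synthesis genes lay between -0.21 and 0.46 and were not called.

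Slc38a2 passed narrowly, at 5.15, 5.44 and 5.08 in wild-type and 4.74, 4.80 and 4.73 in ΔC cells (-0.47 ± 0.15, limma adjusted p = 0.0481). Leaving out any 1 of 9 arrays, all except wild-type untreated 3, wild-type poly(I:C) 3 and ΔC poly(I:C) 3, ended this call (0.0599 to 0.141), and so did scaling arrays to their medians (0.402), the authors' deposited table (0.368, and 0.152 without its mismatched column), a fit of only the groups compared (0.0837), no filter (0.0781) and a block for slide (0.0734) or for scan day (0.0615). Slc7a3 was -0.75 ± 0.36 (limma adjusted p = 0.166) and passed with the replicate block (0.00207) and without the arrays numbered 3 (0.0234). The 2 probes of Slc7a5 gave 0.26 and -0.33. Among the tRNA synthetase genes Wars1, for tryptophanyl-tRNA synthetase, stood at 4.83, 4.68 and 4.82 and at 4.42, 4.37 and 4.49, without overlap (-0.35 ± 0.14, limma adjusted p = 0.104). Eprs1, for the glutamyl-prolyl enzyme, stood at 2.13, 2.38 and 2.26 and at 2.64, 2.60 and 2.51, also without overlap but in the other direction (0.33 ± 0.11, limma adjusted p = 0.0654). The tRNA synthetase genes thus had no common direction, with 3 estimates above and 5 below 0, and 0 passed (2 with an unadjusted p under 0.05). A second probe of Wars1 gave -0.16, and the 2 probes of Aars1 gave -0.05 (the one used) and -0.45.

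After poly(I:C) the genotype comparison again gave 8 called genes, 1 higher and 7 lower in ΔC (20.5%), beside 11.9% higher and 9.04% lower over all genes (20.9% in all), again near the share of all genes. Under quantile normalization the calls were 3 higher and 7 lower. The treated groups did not overlap for 17 of the 39 genes, which held for 40.6% of all genes, and the median difference was -0.32 (-0.18 under quantile normalization and -0.46 with arrays scaled to their medians). The untreated and treated comparisons use different arrays of the same 2 genotypes, and 6 genes were called in both, namely Ddit3, Cebpb, Atf5, Gdf15, Stc2 and Cbs. Nupr1 and Vldlr were called after treatment only and Ddit4 and Slc38a2 without treatment only, and for none of these 4 did the direct test of the difference pass.

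Cebpb was 5.08 ± 0.30 (SD, n = 3) in treated wild-type and 3.74 ± 0.05 in treated ΔC cells, a difference of -1.34 ± 0.18 (limma adjusted p = 6.96e-04). Ddit3 was 2.66 ± 0.30 and 1.49 ± 0.14 (-1.18 ± 0.24, limma adjusted p = 0.00694). Neither call ended when any 1 array was left out, and both did with slide as a block (0.0582 and 0.0925). Atf5 stood at 5.72, 5.54 and 5.48 in wild-type and 4.32, 4.21 and 5.06 in ΔC cells (-1.05 ± 0.29, limma adjusted p = 0.0273). Nupr1 stood at 4.18, 4.51 and 4.75 in ΔC cells, all below the wild-type arrays given above (-1.18 ± 0.31, limma adjusted p = 0.0217). Array 1 or 2 of either treated group ended the calls of Atf5 (0.0761 to 0.0997) and Nupr1 (0.0592 to 0.09) when left out, and so did a block for slide or for scan day (0.0797 to 0.177). Atf3 (-0.51 ± 0.45, limma adjusted p = 0.472) and Atf4 (-0.20 ± 0.12, limma adjusted p = 0.245) overlapped between the treated groups.

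Gdf15 differed by -4.62 ± 0.62, or 24.7-fold (limma adjusted p = 8.13e-04), and was called under all 25 alternatives. Stc2 stood at 1.04, 1.20 and 0.43 in treated wild-type and -2.04, -3.85 and -0.93 in treated ΔC cells (-3.16 ± 0.85, limma adjusted p = 0.0247). Vldlr stood at 1.06, 0.54 and 1.39 and at -1.82, -3.79 and -0.27, and its ΔC arrays were again the more scattered (-2.96 ± 0.86, limma adjusted p = 0.0349). Leaving out array 1 or 2 of either treated group ended the Stc2 call (0.0592 to 0.0868), and these or wild-type poly(I:C) 3 ended that of Vldlr (0.0735 to 0.111). With a block for slide or for scan day neither was called (0.0885 to 0.203). Cbs, at -2.90, -2.41 and -2.08 in wild-type and -0.63, -0.70 and -1.01 in ΔC cells, stayed higher (1.69 ± 0.32, limma adjusted p = 0.0055), and that call ended with a block for slide (0.139) or for scan day (0.0557) and in the authors' deposited table (0.0687), but not in that table without its mismatched column (0.0237).

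**Figure D5:**
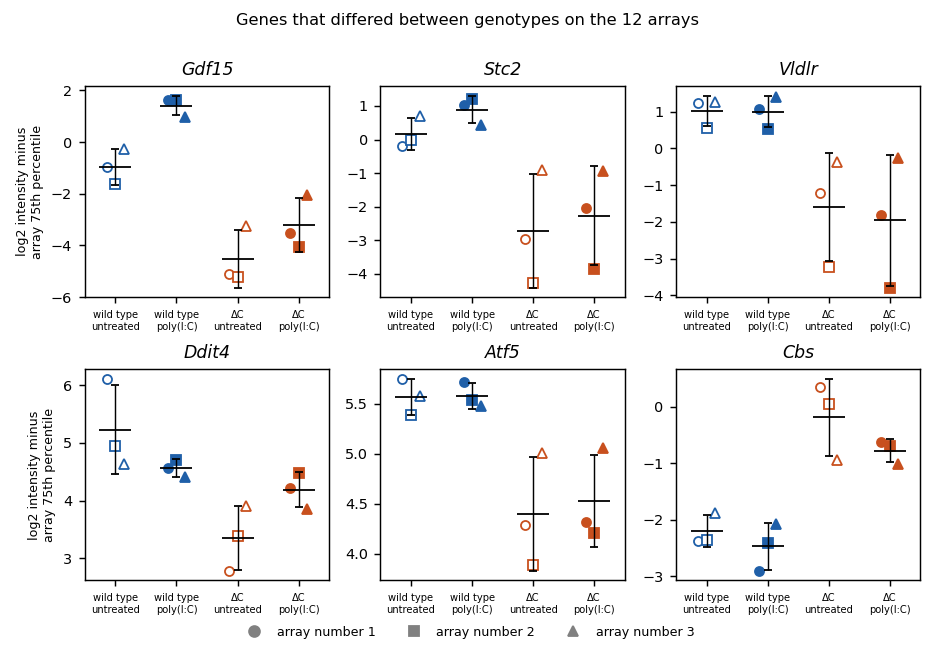
Levels (log2 intensity minus the array's 75th percentile, y axis) of Gdf15, Stc2, Vldlr, Ddit4, Atf5 and Cbs on the 12 arrays by group; symbols give the replicate number, and bars the mean and SD of 3 arrays. For Gdf15, Stc2, Vldlr and Atf5 all 6 ΔC arrays lie below all 6 wild-type arrays, and for Cbs all 6 lie above.

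Of the transporters 0 passed after poly(I:C), and 2 had an unadjusted p under 0.05. Slc7a3 stood at -0.67, -1.02 and -0.20 in treated wild-type and -1.85, -2.02 and -0.92 in treated ΔC cells which overlapped (-0.97 ± 0.36, limma adjusted p = 0.0824, and 6.26e-04 with the replicate block). Scaling arrays to their medians (0.0243) or leaving out ΔC poly(I:C) 3 (0.0245) also brought a call. Slc1a4 stood at 3.80, 4.01 and 3.66 and at 3.40, 3.52 and 3.50, without overlap (-0.35 ± 0.13, limma adjusted p = 0.094). Of the tRNA synthetase genes 0 passed and 3 had an unadjusted p under 0.05. Nars1 stood at 4.37, 4.58 and 4.33 and at 4.02, 3.89 and 3.72 (-0.55 ± 0.19, limma adjusted p = 0.0667), and Wars1 overlapped (-0.40 ± 0.14, limma adjusted p = 0.0655). The third, Eprs1, lay in the other direction, without overlap (0.27 ± 0.11, limma adjusted p = 0.123). The probes of Aars1 gave 0.04 (the one used) and -0.56. Cth, at -0.50 ± 0.21 (limma adjusted p = 0.117), was called with the replicate block (0.0464), without wild-type untreated 3 (0.0219) and without all arrays numbered 3 (0.0206).

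The genotypes shared a slide in 1 pair of untreated arrays (number 2) and 1 pair of treated arrays (number 1), and the called genes' groups do not overlap, so that these pairs give a size and no test of direction. In untreated cells the within-slide differences were -3.60 for Gdf15, -1.51 for Cebpb, -0.98 for Ddit3 and 2.39 for Cbs, and in treated cells they were -5.15, -1.31, -1.41 and 2.28. Without the arrays numbered 3 the counts were 21 in untreated cells (7 higher and 14 lower, where 17.8% and 18.6% of all genes were) and 18 in treated cells (4 higher and 14 lower, where 20.8% and 16.9% of all genes were).

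Markers of other cell types moved with genotype. Of 4 epithelial markers 2, Epcam and Cdh1, were well above background on 0 wild-type arrays and on all ΔC arrays, and both were called higher in ΔC, while 1 of the 4, Krt8, was lower in untreated cells (-1.91 ± 0.43, limma adjusted p = 0.0118). Over all genes 21.2% were called in untreated and 20.9% in treated cells. Epcam was at least 7.71-fold and 7.36-fold higher in ΔC without and with poly(I:C) (limma adjusted p = 0.0162 and 0.0223). Epcam and Cdh1 entered the test only through the ΔC groups, where they were high, so that their calls carry that selection. Krt8 entered only through the wild-type groups, where it was high, so that its call carries that selection too. The summed level of the 4, in units of the array's 75th percentile, was 0.296 to 4.34 in untreated and 0.382 to 3.5 in treated wild-type cells and 1.35 to 3.5 and 1.22 to 2.89 in ΔC cells. These ranges overlapped only through Krt18 on the wild-type arrays numbered 3. Krt18 stood at -2.10, -2.35 and 2.09 in untreated and at -1.60, -2.02 and 1.78 in treated wild-type cells. The summed level of the 8 fibroblast markers was 619 to 706 and 559 to 657 in wild-type and 295 to 581 and 308 to 579 in ΔC cells. In untreated cells 3 of the 8 were called lower in ΔC (Col3a1, Vim and Pdgfrb) and 0 higher, where 10.2% of all genes were lower and 10.9% higher. Of the 8 estimates 2 lay above 0. The estimates ran from -3.64 ± 0.65 for the collagen gene Col3a1 (limma adjusted p = 0.0037) to 1.37 ± 1.36 for Thy1 (limma adjusted p = 0.506). The 3 leukocyte markers with a probe summed to 4.56 to 7.49 and 3.19 to 4.54 in wild-type and 1.69 to 2.95 and 2.23 to 2.51 in ΔC cells. These sums came mostly from Csf1r, at a mean of 2.41 in untreated wild-type cells, beside -4.77 for Ptprc and -4.13 for Adgre1. Without and with poly(I:C) the genotype differences were -1.19 and -0.80 for Csf1r, -0.39 and 0.55 for Ptprc and -0.54 and 0.13 for Adgre1. Of 4 endothelial markers with a probe 2 were tested, and they summed to 15.1 to 22.1 and 15.6 to 16.2 in wild-type and 12.4 to 15.7 and 12.4 to 17.9 in ΔC cells. The 1 tested muscle marker, Des, was well above background on 0 wild-type and all ΔC arrays, with levels of 0.00676 to 0.0167 and of 0.0221 to 0.0768 in the same units. The part of these cell markers in the genotype differences was not tested, and fewer cells of a type and less RNA per cell cannot be told apart in such bulk samples.

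Genes upstream of ATF4 were read from a list of 12 eIF2α kinase, phosphatase and eIF2B genes. In wild-type cells 2 of the 12 rose and 0 fell (16.7% called), where 5.24% of all genes rose and 1.53% fell. The 2 were Eif2ak2, the gene of PKR, by 3.30 ± 0.45 (limma adjusted p = 0.0017), and Ppp1r15b, which encodes the constitutive counterpart of GADD34 in the same phosphatase role, by 0.67 ± 0.15 (limma adjusted p = 0.024). Ppp1r15a itself stood at 2.65, 2.62 and 3.36 without and 5.79, 5.83 and 5.81 with poly(I:C). The groups separated fully, yet the shared estimate of the spread left it uncalled (2.93 ± 0.91, limma adjusted p = 0.0805). In ΔC cells 0 of 12 passed (2 with an unadjusted p under 0.05), and Eif2ak2 had a difference of 1.20 ± 0.45 (limma adjusted p = 0.366). The direct test of the difference between the responses passed neither for Eif2ak2 (-2.10 ± 0.63, limma adjusted p = 0.546) nor for Ppp1r15b (-0.28 ± 0.21, limma adjusted p = 0.987). Between genotypes 3 were lower in untreated ΔC cells (Ppp1r15a, Eif2s1 and Eif2b2), or 25% called, beside 21.2% of all genes. After poly(I:C) 2 were lower (Ppp1r15a and Eif2b2), or 16.7%, beside 20.9% of all genes. In both comparisons 0 were higher, and the Ppp1r15a calls carry the selection given above.

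Among 11 other targets of ATF4 or CHOP 0 passed in the response of either genotype (1 and 2 with an unadjusted p under 0.05). In untreated ΔC cells 5 were lower and 1 higher (54.5% called, beside 21.2% of all genes). After treatment 4 were lower (36.4%, beside 20.9% of all genes). The lower ones at rest were Jdp2, which encodes a repressor related to ATF3 (-0.88 ± 0.20, limma adjusted p = 0.011), the glycine transporter gene Slc6a9, the folate enzyme gene Aldh1l2, the tRNA exporter gene Xpot and the cell death gene Bbc3. Bcl2l11, another cell death gene, was the higher one (1.40 ± 0.44, limma adjusted p = 0.0452).

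Among 12 other cytosolic tRNA synthetase genes 1 rose in wild-type cells, Yars1 (0.60 ± 0.13, limma adjusted p = 0.0256), and 0 passed in ΔC cells (2 with an unadjusted p under 0.05). The 1 riser is 8.33% of the 12, where 5.24% of all genes rose. In ΔC cells Yars1 had a difference of 0.38 ± 0.13 without overlap (limma adjusted p = 0.323). The direct test of the difference between its responses did not pass (-0.22 ± 0.19, limma adjusted p = 0.987). Hars1 and Lars1 were lower in ΔC cells in both genotype comparisons, with differences of -1.09 ± 0.14 and -0.55 ± 0.10 at rest (limma adjusted p = 4.88e-04 and 0.00325). These 2 are 16.7% of the 12 in each comparison, where 21.2% and 20.9% of all genes were called. The 13 genes of the IRE1 and ATF6 branches, the other arms of the response to endoplasmic reticulum stress, had medians of -0.28 in wild-type and -0.12 in ΔC cells. In wild-type cells 0 rose and 1 fell, the chaperone-associated gene Sdf2l1 (-0.52 ± 0.13, limma adjusted p = 0.0439). In ΔC cells 1 rose, Herpud1, which encodes a membrane protein of the degradation machinery and is also induced by ATF4 (1.13 ± 0.23, limma adjusted p = 0.0379). Its wild-type groups did not overlap either (0.71 ± 0.23, limma adjusted p = 0.0959). The direct test of the difference between the responses passed for neither Sdf2l1 nor Herpud1 (limma adjusted p = 0.987 for both). The 1 call in each response is 7.69% of the 13, where 1.53% of all genes fell in wild-type and 1.82% rose in ΔC cells. Between genotypes 3 of the 13 were lower in ΔC at rest (23.1% called, beside 21.2% of all genes). After poly(I:C) 1 was lower (7.69%, beside 20.9%), and 0 were higher in either comparison.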

How the data were processed

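Values came from the scanner files of 12 single-colour Agilent arrays (Feature Extraction 10.7.3.1, per the file headers). Per the file headers, the deposited processed intensity of each spot is background-subtracted and detrended, with no normalization between arrays, and flags mark spots well above background. A second deposited table, in log2 units, has a column median of 5.28 for all 12 arrays. Its normalization and filters are not given in the sources used here. Its column for ΔC poly(I:C) 1 matched the array of wild-type untreated 1 better (r = 0.9743) than its own (r = 0.9488). The table therefore served only as an alternative, with and without that column. The submitters' processing notes name limma and give no model or version.

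Log2 processed intensities of a probe's spots were averaged after control and outlier spots were left out (0 spots were saturated), and the array's 75th percentile was subtracted. Of 55681 probes 27235 were named through RefSeq accessions. Genes with a probe well above background on all 3 arrays of a group were tested (15445), the brightest probe standing for its gene. The 5 contrasts were fitted in limma 3.58.1 (R 4.3.3; 1 mean per group, 8 residual degrees of freedom, two-sided, Benjamini-Hochberg), after a check on simulated arrays. Same-numbered arrays deviated together (r of deviations 0.115 to 0.651 in the 12 pairs), so the replicate number was taken to pair them, and the value with it as a block is given where it changed a call. Genes were given in full if they were Atf3, Atf4 or Ddit3, were called in any contrast, or had 1 of the 2 largest changes of their role group in a contrast without calls. The members, lists and tests were chosen with earlier results of these data known.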

Additional observations from a re-analysis of the deposited data

How the results depend on the processing

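The count of called members, and with it the share of all genes called (in parentheses), depended on the batch terms and on the arrays numbered 3. In the wild-type response (6, 6.77%) it was 3 with only the groups compared (2.92%), 11 with a trended, robust prior (9.86%), 1 with a block for slide (1.50%), 1 with one for scan day (3.43%), 2 with the authors' deposited table (2.24%), 18 without the arrays numbered 3 (34.1%) and 1 to 12 when 1 array was left out (2.42% to 14.5%). In the ΔC response (2, 1.84%) it was 1 with only the groups compared (1.17%), 5 with the trended prior (1.96%), 1 with the replicate block (2.03%), 0 with a block for slide (0.544%), 1 with one for scan day (0.939%), 0 with the authors' table (0.00%), 1 with that table without its mismatched column (1.02%), 11 without the arrays numbered 3 (13.1%) and 1 to 5 when 1 array was left out (0.997% to 2.30%). Between untreated genotypes (8, 21.2%) it was 0 with a block for slide (5.98%), 3 with one for scan day (10.5%), 4 with the authors' table (6.66%), 21 without the arrays numbered 3 (36.4%) and 5 to 10 when 1 array was left out (11.6% to 24.7%). Between treated genotypes (8, 20.9%) it was 1 with a block for slide (6.08%), 3 with one for scan day (11.3%), 3 with the authors' table (3.59%), 5 with that table without its mismatched column (14.4%), 18 without the arrays numbered 3 (37.7%) and 4 to 10 when 1 array was left out (11.3% to 22.9%). Median scaling, quantile normalization, normexp, the absence of a filter and the mean over probes kept these 4 counts within 1.5 times, and the replicate block gave 8, 10 and 10 in the wild-type and the genotype comparisons. The direct test of the difference gave 0 throughout. Among the 31 single-gene results (called genes with Atf3, Atf4 and Ddit3) the sign turned for Atf4 between untreated genotypes (0.03 under quantile normalization and with the authors' table in both forms). Uncalled genes with small estimates turned too, such as Slc7a5 between untreated genotypes (to -0.04). The cause of these shifts was not tested. There were 3 arrays a group, and slides and scan days cut unevenly across the groups. A batch difference and the loss of precision from fitting batch terms therefore cannot be told apart here.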
